A study of Arabidopsis with 6 samples.

Results

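The genes described here encode the proteins of the head of the cytosolic 40S ribosomal subunit in Arabidopsis thaliana. They were listed by locus for 13 proteins (S3, S5, S10, S12, S15, S16, S17, S18, S19, S20, S25, S28 and S29), 42 loci in all. Each locus was represented by the brightest probe set that the probe table assigns to that 1 gene. By this rule 20 loci of 9 proteins were measured, out of 22746 tested probe sets on the ATH1 array. Another 14 loci are read only by probe sets that several genes share, and for 8 loci the table names no probe set. S5 and S18, including PFL, an S18 gene named after the pointed first leaves of its mutant, are therefore not analysed here.

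The study asked which transcripts are altered in apum23 plants. The mutant group was 3 arrays of apum23 plants (labelled apum23-1, apum23-2 and apum23-3 in the 3 descriptions, apum23-1 in the growth protocol), and the other group was 3 arrays of wild type, both in the Col-3 background. The sources used here do not say whether the last number stands for an allele or a replicate, nor how many plants made up a sample. Both genotypes were grown on soil for 21 days at 22 °C with 8 h of light and 16 h of darkness, and aerial parts were harvested. APUM23 itself has no probe set named in the table, so the genotype was not checked from its own transcript.

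The small subunit reads the messenger RNA, and its head is the part that swivels as tRNAs and mRNA move through the ribosome. The head's beak and its inner face line the channel by which mRNA enters, and its proteins touch the tRNAs and form bridges to the 60S subunit. In Arabidopsis each of these proteins is encoded by a small family of paralogous genes, and reduced dosage of single members is known for pointed, narrow leaves. APUM23 is a nucleolar RNA-binding protein of the Pumilio family that takes part in trimming ribosomal RNA precursors, the RNA on which these proteins assemble.

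Array medians of the deposited log2 intensities were 5.70, 5.75 and 6.10 for apum23 and 5.34, 5.77 and 5.94 for wild type, so the values below are given after quantile normalization, and counts on the deposited scale stand beside them. Wild-type replicate 1 stood apart, with a mean of 5.36 for its spiked-in hybridization controls against 9.42 to 9.74 on the other 5 arrays. RCA, the leaf-abundant Rubisco activase, was among the brightest probe sets at 13.78 ± 0.07 in apum23 and 13.71 ± 0.06 in wild type (log2 intensity, SD, n = 3 each). The root hair genes EXPA7 and EXPA18 had 3.62 and 4.15 in apum23 against 3.74 and 4.06 in wild type, and CLV3 of the shoot meristem had 3.48 against 3.38. These 3 lay among the dimmest 40% of probe sets. Of 12 listed genes of dividing cells 1 was measured, PRL, an MCM7 replication gene, which was lower in apum23 (7.36 ± 0.11, against 7.77 ± 0.07 in wild type; a log2 fold change of -0.41, adjusted p = 0.014 in limma). Of 14 leaf photosynthesis genes 2 were measured, RCA, which was not called, and PRK, an enzyme of the Calvin cycle, which was lower (12.27 ± 0.19, against 12.71 ± 0.05 in wild type; a log2 fold change of -0.44, adjusted p = 0.0163 in limma). On the deposited scale PRL and PRK were not called (limma adjusted p = 0.637 and 0.403). The 3′ minus 5′ difference of an actin control was 1.36 ± 0.09 in apum23 and 1.64 ± 0.10 in wild type (two-sided exact permutation p = 0.1, the lowest value this test can give with 3 arrays a group), while a second actin control had 3.92 ± 0.15 and 3.85 ± 0.17 (exact permutation p = 0.5). The part of these differences in the results below was not tested.

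Transcripts of the head proteins were more abundant in apum23. Among the 20 measured genes 15 rose, 5 were not called and 0 fell (limma, Benjamini-Hochberg adjusted p under 0.05 over all probe sets). Over all tested probe sets 9.66% were called higher and 10.1% lower. For the same 15 genes every apum23 array lay above every wild-type array, which held for 15.9% of all probe sets. The median log2 fold change was 0.56 over the 20 genes and -0.018 over all probe sets, and the 15 called genes ranged from 0.35 to 0.91 (1.27-fold to 1.88-fold), with standard errors of 0.09 to 0.13. In a bulk sample a change in the share of cells that make a transcript and a change of its level per cell cannot be told apart.

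The 5 genes without a call, 4 of S15 and 1 of S25, all lay among the dimmest 40% of probe sets, where a log2 difference is close to background and of uncertain size. The other 15 had wild-type means of 6.68 or more, above the 4.83 that bounds the dimmest 40%, and with those dim probe sets left out of the fit 16.0% of the remaining probe sets were called higher. The scale of the arrays changed the count. On the deposited scale 10 of the 20 genes rose (5.31% of all probe sets) with a median of 0.64. With each array centred on its median, 9 rose (5.26% of all probe sets) with a median of 0.47. None of the 20 was called lower on any of the 3 scales. Without wild-type replicate 1, the array that stood apart, 13 of the 20 rose, against 1875 of all 22746 probe sets called higher. The median of the 20 was then 0.57, and the 2 that were no longer called are the S10 genes.

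**Figure D1:**
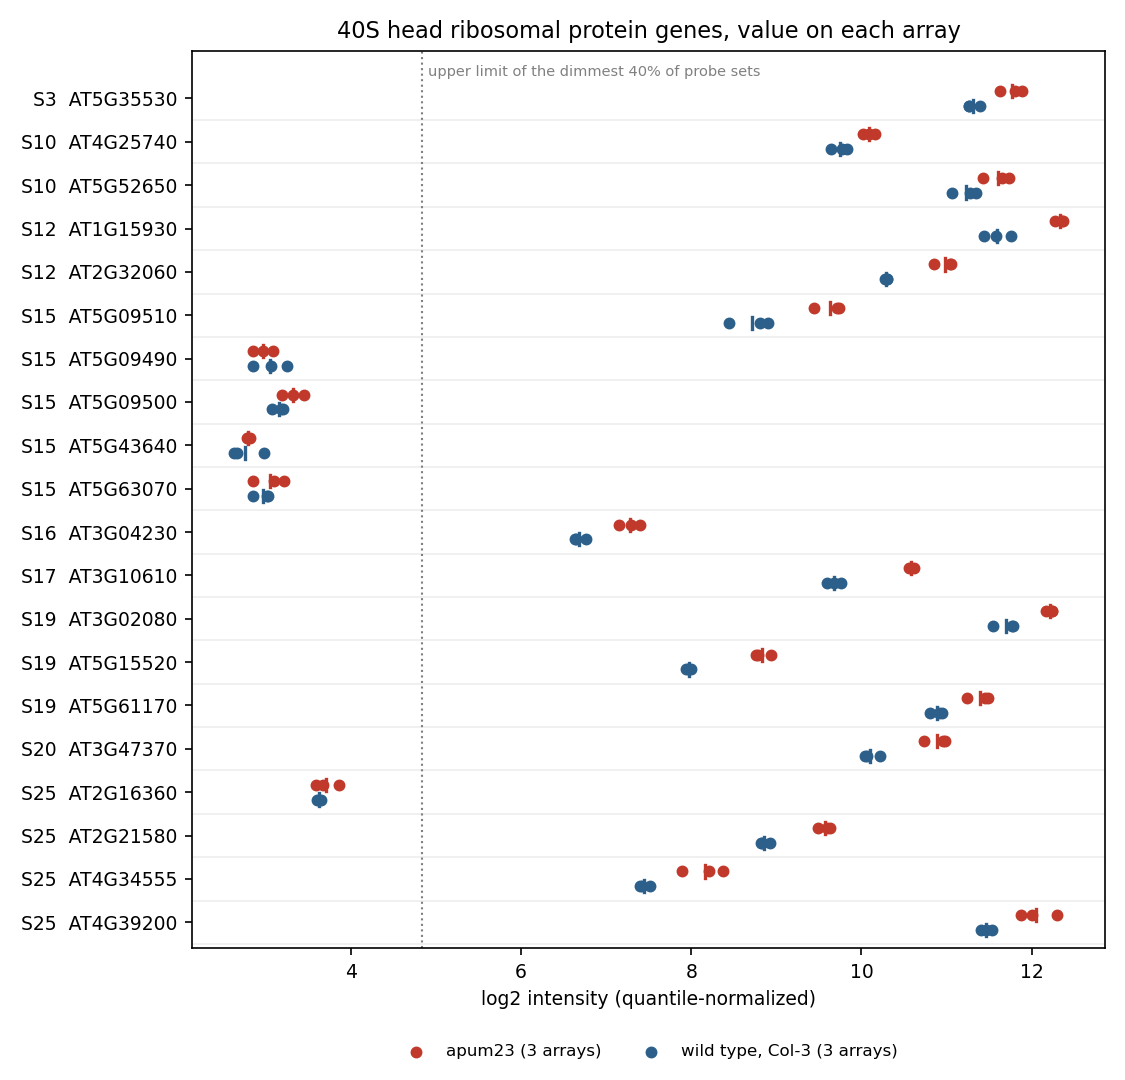
Quantile-normalized log2 intensity (x axis) of the 20 measured 40S head genes (rows, with the protein's name) on each array. Points are the 3 apum23 arrays (red, upper) and the 3 wild-type arrays (blue, lower), short lines are group means, and the dotted line at 4.83 bounds the dimmest 40% of probe sets. In 15 rows the red points all lie right of the blue ones, and the 5 rows left of the dotted line overlap.

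Around the mRNA entry channel, S3 was measured through 1 gene. S3 (uS3) is a universally conserved protein that lines the entry site. AT5G35530 had 11.63, 11.88 and 11.80 on the apum23 arrays, against 11.40, 11.26 and 11.26 on the wild-type arrays (log2 intensity). The groups did not overlap, and the log2 fold change was 0.46 ± 0.10 (SE, limma adjusted p = 0.00847). On the deposited scale the difference was 0.57 and was not called (limma adjusted p = 0.123), nor was it with centred arrays (0.40, limma adjusted p = 0.112).

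S10 (eS10), which sits at the beak and has no bacterial counterpart, showed the smallest fold changes among the called genes. Its remaining listed gene, RPS10B (AT5G41520), has no named probe set and is not analysed here. AT4G25740 had 10.09, 10.02 and 10.17 in apum23, against 9.78, 9.64 and 9.83 in wild type, a log2 fold change of 0.35 ± 0.10 (SE, limma adjusted p = 0.0291). AT5G52650 had 11.73, 11.43 and 11.65 in apum23, against 11.07, 11.35 and 11.28 in wild type, a log2 fold change of 0.37 ± 0.12 (SE, limma adjusted p = 0.043). The arrays of both genes separated by genotype, in AT5G52650 by 0.08 at the narrowest point. Neither was called on the deposited scale (limma adjusted p = 0.464 and 0.331) or with centred arrays (0.33 and 0.203). Leaving out single arrays ended the call of AT4G25740 in 4 of 6 cases (wild-type replicate 1 or 2, apum23 replicate 1 or 3) and that of AT5G52650 in 5 of 6, all but apum23 replicate 2, with log2 fold changes of 0.29 to 0.38 and 0.29 to 0.45. With the replicate number as a block AT5G52650 was not called (limma adjusted p = 0.0758).

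S12 (eS12), a protein of the beak, was higher through both of its genes by similar amounts. AT1G15930 had 12.37, 12.36 and 12.28 in apum23, against 11.44, 11.58 and 11.76 in wild type, and rose by 0.75 ± 0.11 (log2, SE, limma adjusted p = 0.000579). AT2G32060 had 11.05, 10.85 and 11.05 in apum23, against 10.30, 10.30 and 10.27 in wild type, and rose by 0.69 ± 0.10 (log2, SE, limma adjusted p = 0.000561). Both were called on each of the 3 array scales. S20 (uS10), a universal protein of the head that is ubiquitinated when ribosomes collide, was measured through AT3G47370. This gene had 10.74, 10.98 and 10.96 in apum23, against 10.06, 10.22 and 10.04 in wild type, and rose by 0.79 ± 0.11 (log2, SE, limma adjusted p = 0.00042).

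S15 (uS19) and S16 (uS9) are universal proteins of the head's inner face: uS19 forms a bridge to the 60S subunit, and the tail of uS9 reaches the tRNA in the P site. The S15 family split by brightness. AT5G09510 had 9.44, 9.74 and 9.71 in apum23, against 8.90, 8.80 and 8.45 in wild type, and rose by 0.91 ± 0.13 (log2, SE, limma adjusted p = 0.000702), the largest fold change of the 20 genes. It is the last of 3 consecutive protein-coding S15 genes in the RefSeq gene table, after AT5G09490 and AT5G09500. Those neighbours had 2.96 ± 0.12 and 3.32 ± 0.13 in apum23, against 3.05 ± 0.20 and 3.15 ± 0.07 in wild type (SD, n = 3 each), and were not called (limma adjusted p = 0.693 and 0.31). The other measured S15 genes, AT5G43640 (2.79 ± 0.02 in apum23, 2.76 ± 0.20 in wild type) and AT5G63070 (3.05 ± 0.18 and 2.96 ± 0.10), were not called either (limma adjusted p = 0.882 and 0.66). Of the 5 S15 genes measured, AT5G09510 was thus the 1 with signal outside the dimmest 40%, and the sixth, RPS15 (AT1G04270), is not analysed here. S16 was represented by AT3G04230, with 7.15, 7.30 and 7.40 in apum23, against 6.65, 6.76 and 6.64 in wild type. Its log2 fold change was 0.60 ± 0.10 (SE, limma adjusted p = 0.0017).

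Proteins S17, S19 and S25 are shared by archaea and eukaryotes (S17, S19) or belong to eukaryotes and some archaea (S25), and are all part of the head. S17 (eS17) was measured through AT3G10610, which had the smallest adjusted p of the 20 genes. Its values were 10.62, 10.58 and 10.56 in apum23, against 9.76, 9.68 and 9.59 in wild type, a log2 fold change of 0.91 ± 0.09 (SE, limma adjusted p = 8.11e-05). The narrowest gap between the groups was 0.80, wider than the range within either group.

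S19 (eS19), needed in yeast and human cells to mature the small subunit's RNA, had 3 measured genes, and all 3 rose. AT5G15520 had 8.94, 8.77 and 8.78 in apum23, against 7.94, 7.96 and 8.00 in wild type, a log2 fold change of 0.86 ± 0.10 (SE, limma adjusted p = 0.000126). AT3G02080 had 12.24, 12.16 and 12.24 in apum23, against 11.77, 11.54 and 11.78 in wild type, and AT5G61170 had 11.45, 11.24 and 11.49, against 10.81, 10.91 and 10.95. Their log2 fold changes were 0.52 ± 0.10 and 0.50 ± 0.10 (SE, limma adjusted p = 0.0041 and 0.00549). AT5G15520 was called on all 3 array scales, while the other two were called after quantile normalization alone (as deposited, limma adjusted p = 0.0938 and 0.133).

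S25 (eS25) is known for its contact with viral internal ribosome entry sites. Of its 4 measured genes 3 rose: AT2G21580 by 0.72 ± 0.10, AT4G34555 by 0.71 ± 0.12 and AT4G39200 by 0.59 ± 0.12 (log2, SE, limma adjusted p = 0.000379, 0.00203 and 0.0048). AT2G21580 had 9.49, 9.63 and 9.60 in apum23, against 8.92, 8.83 and 8.82 in wild type. AT4G34555 had 7.90, 8.21 and 8.37 in apum23, against 7.51, 7.43 and 7.40 in wild type. The mutant arrays of AT4G34555 spread more widely than the wild-type arrays, with apum23 replicate 1 the lowest. AT4G39200 averaged 12.06 ± 0.22 in apum23 (lowest array 11.88) and 11.47 ± 0.07 in wild type (highest array 11.54; SD, n = 3 each), and was not called with centred arrays (0.52, limma adjusted p = 0.0531). AT2G16360, at 3.71 ± 0.14 in apum23 and 3.63 ± 0.02 in wild type, was not called (limma adjusted p = 0.649).

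**Figure D2:**
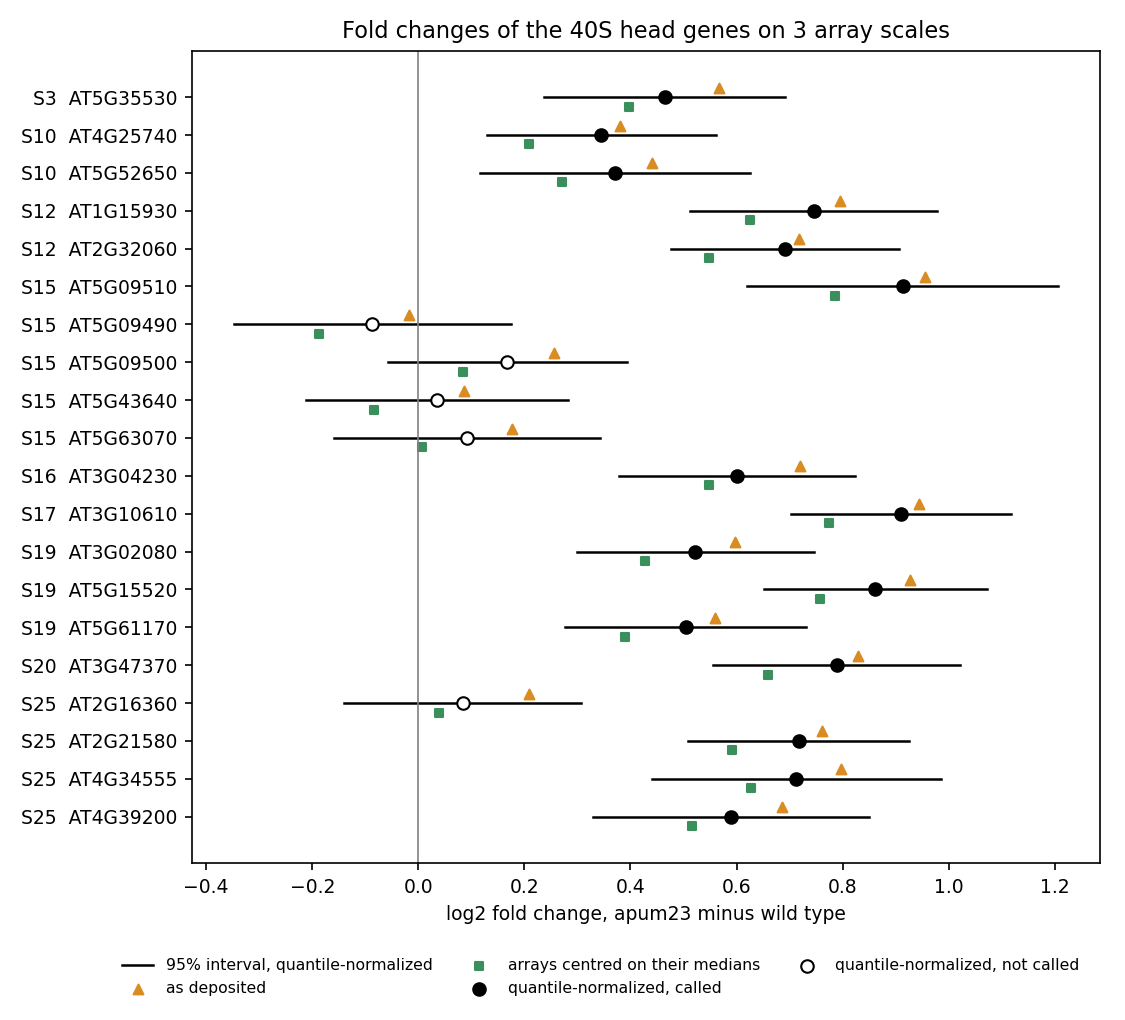
Log2 fold change, apum23 minus wild type (x axis), of the 20 measured genes (rows). Circles with 95% intervals are the quantile-normalized fit (filled if called), triangles the deposited scale and squares arrays centred on their medians. All 15 filled circles lie between 0.35 and 0.91, and for each gene the deposited scale gives the highest and the centred scale the lowest value.

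Between proteins the fold changes spread from S10 (0.35 and 0.37) through S3 (0.46), S19 (0.50 to 0.86), S16 (0.60) and the bright S25 genes (0.59 to 0.72) to S12 (0.69 and 0.75), S20 (0.79), S17 (0.91) and the bright S15 gene (0.91). S3, S16, S17 and S20 are each placed by 1 gene. The brighter shared probe sets of the other S16 and S17 genes (12.48 and 11.81 in wild type) had 0.27, not called, and 0.33. Universal proteins and those without a bacterial counterpart did not form separate ranges. The 4 bright genes of universal proteins ranged from 0.46 to 0.91, and the 11 others from 0.35 to 0.91. The standard error of a single gene was about 0.1, so neighbours in this order do not differ beyond their error. The 95% intervals of the S10 genes (0.13 to 0.56 and 0.12 to 0.62) do not reach that of the S17 gene AT3G10610 (0.70 to 1.12), a contrast picked after the values were seen and not tested. The interval of the shared S17 probe set (0.11 to 0.55) overlaps those of both S10 genes.

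Paralogs of 1 protein were compared through the difference of their log2 values within each array, which removes any offset of a whole array. There were 21 pairs, 13 of which include a probe set among the dimmest 40%. In the other 8 pairs the difference between the paralogs' log2 fold changes ran from 0.0042 to 0.36 in size. The AT5G15520 minus AT5G61170 difference of S19 was -2.51, -2.47 and -2.70 in apum23, against -2.86, -2.95 and -2.94 in wild type, a shift of 0.36 (two-sided exact permutation p = 0.1, adjusted 0.21 over the 21 pairs). The AT3G02080 minus AT5G15520 difference was 3.30, 3.40 and 3.46 in apum23, against 3.83, 3.58 and 3.78 in wild type, a shift of -0.34 (exact permutation p = 0.1, adjusted 0.21). In both cases the arrays of the genotypes did not overlap and AT5G15520 was the paralog that rose more, but the exact permutation test cannot give a p below 0.1 with 3 arrays a group, so no pair could pass it. AT5G15520 was also the dimmest measured S19 gene (wild-type mean 7.97, against 11.70 for AT3G02080 and 10.89 for AT5G61170). Whether probe brightness has a part in such shifts was not tested.

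The other 6 bright pairs overlapped between genotypes. The S10 pair (AT4G25740 minus AT5G52650) averaged -1.51 ± 0.12 in apum23 and -1.48 ± 0.21 in wild type (SD, n = 3 each; exact permutation p = 0.9). The S12 pair (AT1G15930 minus AT2G32060) averaged 1.35 ± 0.14 and 1.30 ± 0.17 (exact permutation p = 0.7). The 3 pairs of bright S25 genes shifted by 0.0042 to 0.13, with exact permutation p from 0.4 to 0.9, and the AT2G21580 and AT4G34555 pair was at -0.04 on the deposited scale. Without apum23 replicate 2 the shifts of AT2G21580 and AT4G34555 against AT4G39200 were both 0.23, and 4 of the 8 bright pairs did not overlap. With these few arrays such a result does not show that paralogs responded alike. The third S19 pair, AT3G02080 minus AT5G61170, averaged 0.83 ± 0.09 in apum23 and 0.81 ± 0.17 in wild type (exact permutation p = 1).

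Probe sets outside the member rule carried some of the remaining paralogs, while 8 loci have no named probe set. There were 8 probe sets that the table assigns to 2 or 3 genes of 1 head protein, and they cover 14 loci. They read several genes of a protein without telling them apart. Only for S29 do they cover all listed genes, and RPS28 (AT5G64140) of S28 has no named probe set. In all 8 every apum23 array lay above every wild-type array, against 15.9% of all probe sets, and 7 rose and 0 fell, against 9.66% of all probe sets called higher. Their log2 fold changes were 0.27 to 0.93. On the deposited scale 2 of the 8 rose, against 5.31% of all probe sets. The 2 probe sets of S28 (eS28), a protein at the mRNA exit, rose by 0.93 ± 0.11 and 0.67 ± 0.10 (SE, limma adjusted p = 0.000147 and 0.00067). The 2 of S29 (uS14), a small zinc-binding protein of the head, rose by 0.41 ± 0.11 and 0.38 ± 0.09 (limma adjusted p = 0.0198 and 0.0149). The shared probe sets of S3, S17 and S20 rose by 0.47, 0.33 and 0.54 (limma adjusted p = 0.0195, 0.0407 and 0.00226), and that of S16 was not called (0.27, limma adjusted p = 0.101).

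Set against these, the single-gene probe set moved further in 3 of the 4 proteins that have both kinds, in comparisons chosen after seeing the data (6 in all, with the pairs of S28 and S29). In those 3 (S16, S17 and S20) it was also dimmer than the shared probe set, and in S3 it was brighter. AT3G10610 minus the shared S17 probe set was -1.43, -1.66 and -1.56 in apum23, against -2.15, -2.08 and -2.17 in wild type, a shift of 0.58 (exact permutation p = 0.1, adjusted 0.3 over the 6). For S16 the shift was 0.33 (exact permutation p = 0.1), with groups that barely missed each other (lowest apum23 array -5.63, highest wild-type array -5.65), for S20 0.25 (exact permutation p = 0.2), and for S3 -0.0042 (exact permutation p = 1). The 2 S28 probe sets read the same pair of loci, and the dimmer of them (9.34 in wild type, against 11.05) rose more. The 2 S28 probe sets differed in log2 fold change by 0.26 (exact permutation p = 0.2) and the 2 of S29 by 0.03 (exact permutation p = 0.8). Differences between paralogs of up to about this size thus also occurred between probe sets of the same loci.

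**Figure D3:**
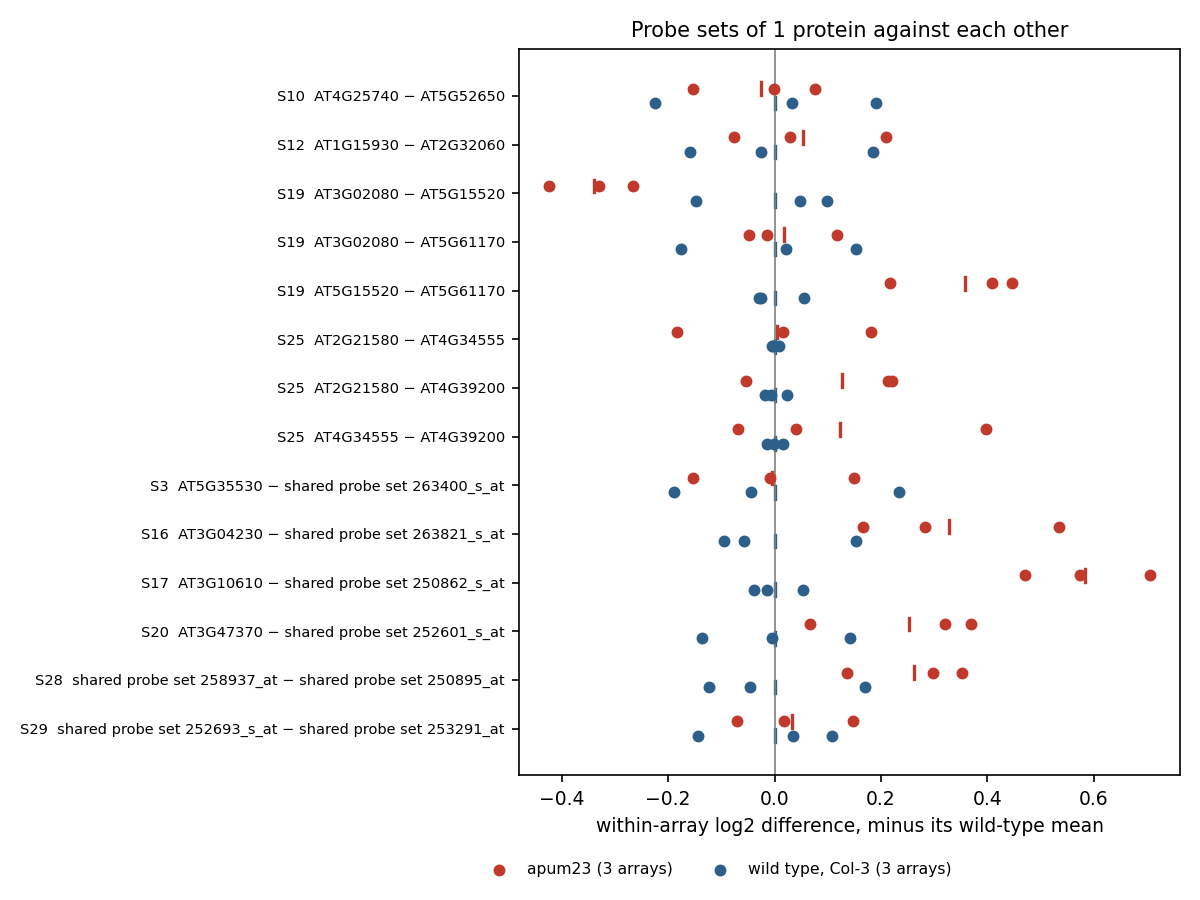
Within-array log2 difference between 2 probe sets of 1 protein, minus its wild-type mean (x axis), for the 8 pairs of bright paralogs, the 4 pairs of a single-gene and a shared probe set, and the 2 pairs of shared probe sets of the same loci (rows). Red points (upper) are apum23 arrays, blue points (lower) wild-type arrays, and short lines are means. The red points clear the blue ones in 4 rows: the pairs with AT5G15520 of S19, and S16 and S17 against their shared probe sets.

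The most similar set is that of the 40S body and platform proteins, with 27 of 52 listed genes measured. Among these 23 rose, 4 were not called and 0 fell (against 9.66% of all probe sets called higher), and on the deposited scale 9 rose (against 5.31% of all probe sets). Their median log2 fold change was 0.49, beside 0.56 for the head genes. Without the genes among the dimmest 40%, the medians were 0.49 (26 body and platform genes) and 0.69 (15 head genes). The difference between the sets was not tested. The largest values were those of AT5G59240, an S8 gene (6.83 ± 0.19 in apum23, 4.75 ± 0.36 in wild type, log2 fold change 2.08, of uncertain size since its wild-type mean lies under the 4.83 that bounds the dimmest 40%), and AT5G39850, an S9 gene (8.20 ± 0.31 and 6.45 ± 0.11, 1.75). The smallest were those of AT2G39590 of S15a (-0.12, limma adjusted p = 0.536) and AT5G16130 of S7 (0.23, limma adjusted p = 0.166). AT2G39590 lay among the dimmest 40% of probe sets (2.74 in apum23, 2.86 in wild type), close to background. The 2 measured S9 genes differed in log2 fold change by 1.37 and the 2 S8 genes, with the same limit for AT5G59240, by 1.64. Among head paralogs with single-gene probe sets the widest such difference was 1.00 over all pairs, in a pair with a dim S15 gene, and 0.36 among the bright pairs. AT3G10610 differed by 0.58 from the shared probe set of the other S17 genes.

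**Figure D4:**
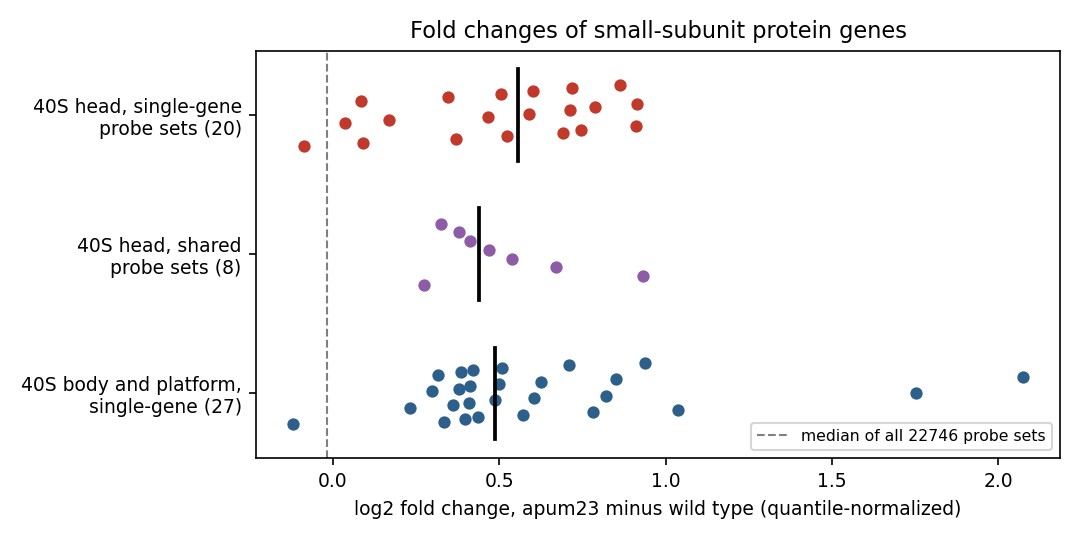
Log2 fold change, apum23 minus wild type (x axis), of the 20 single-gene and 8 shared probe sets of the 40S head and of the 27 single-gene probe sets of the 40S body and platform (rows). Each point is a probe set, black lines are medians (0.56, 0.44 and 0.49), and the dashed line is the median of all 22746 probe sets (-0.018). The head points end at 0.93, while 2 body genes lie at 1.75 and 2.08.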

How the data were processed

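The authors deposited log2 intensities per ATH1 probe set. The tools named, per the submitters' processing notes, are RMA and limma; their versions are not given there. Array medians of the deposited log2 values differ, so no quantile step across these 6 arrays is in them. They were quantile-normalized over all 22810 probe sets (normalizeBetweenArrays), 64 Affymetrix controls were removed, and the other 22746 probe sets were fitted with limma 3.58.1 in R 4.3.3 (lmFit, eBayes, no block, two-sided). P-values were adjusted by Benjamini-Hochberg over all tested probe sets, and a probe set was called below 0.05. The fit was tested on simulated data with independent noise and known shifts in a small share of probe sets. That test does not bear on the choice of array scale.

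The platform annotation assigns 13513 tested probe sets to 1 gene and 503 to several, and 8730 are unnamed here. Loci were matched by gene ID to the RefSeq table of TAIR10.1. The named genes are all measured members, the 2 largest and 2 smallest fold changes of the body and platform list, and the measured markers. Members and lists were chosen with earlier results of these data known. Near-identical paralogs may contribute signal to a probe set assigned to 1 gene. No detection calls were used. Precision is limited by having 3 arrays a genotype. The design text calls the samples independent without saying whether they came from separate plantings. The p-values therefore rest on the spread between these samples, which may be partly technical. Promoter and protein sequences were not used here.

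Deviations of same-numbered arrays from their group means correlated at -0.21, 0.03 and 0.00, so the replicate numbers were not taken as pairs. Alternatives were the deposited scale, median centring, a replicate block, a filter on dim probe sets and another variance model. Further ones were each array left out, apum23 replicate 1 alone, a stricter threshold and averaging of probe sets. No listed head locus has several single-gene probe sets, so averaging could not change a head gene.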

Additional observations from a re-analysis of the deposited data

How the results depend on the processing

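The cause of each change below was not tested unless a reason is given. Over all probe sets 4498 were called (2197 higher, 2301 lower, 48.8% higher). On the deposited scale there were 1522 (1208 and 314, 79.4% higher), with a single standard error of 0.22 for every probe set, and with centred arrays 2997 (1196 and 1801, 39.9% higher). Keeping only replicate 1 of apum23, so that the spread is that of wild type and the lone array is assumed to vary like it, gave 1700 (932 and 768), and a threshold of 0.01 gave 2461 (1334 and 1127). With each array left out the total was 2965 to 4061 (1539 to 2097 higher, 1426 to 1964 lower), lowest without apum23 replicate 3 (2965, with 1426 lower); without wild-type replicate 2 the lower calls were 1511. Head genes called numbered 15, against 10 on the deposited scale, 9 with centred arrays, 14 with the replicate block, 6 with the lone mutant array and 13 to 15 when single arrays were dropped. Their median of 0.56 was 0.64 as deposited, 0.47 with centred arrays, 0.48 with the lone mutant array, 0.53 to 0.59 when single arrays were dropped and 0.69 without the dimmest 40%, where 5 members drop out. Body and platform genes called numbered 23, against 9 as deposited, 11 with centred arrays, 10 with the lone mutant array, 14 at the 0.01 threshold and 16 to 22 when single arrays were dropped, and their median of 0.49 was 0.35 with centred arrays and 0.44 to 0.53 with each array left out. The replicate block gave 3966 calls in all and changed no other head call than that of AT5G52650.

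None of the 15 called head genes changed direction in any setting run. Because their groups do not overlap on the quantile scale, leaving arrays out could hardly turn a direction and does not test it. The replicate block, dim filter, other variance model, stricter threshold and averaging leave each of these fold changes as it was and do not test direction either. Of the dim genes, AT5G43640 was at -0.0843 with centred arrays and at -0.0304 to 0.1521 when single arrays were dropped, and AT5G09490 was at 0.0292 with the lone mutant array and at -0.1906 to 0.0109 when single arrays were dropped. Among the 8 bright paralog pairs 2 did not overlap; dropping single arrays gave 2 to 4 (4 without apum23 replicate 2, 3 without apum23 replicate 3), where fewer arrays make a gap more likely. Pair shifts that turned when single arrays were dropped ran from -0.1443 to 0.0658 (AT4G25740 minus AT5G52650), -0.0278 to 0.1383 (AT1G15930 minus AT2G32060), -0.0833 to 0.0893 (AT3G02080 minus AT5G61170), -0.0882 to 0.0963 (AT2G21580 minus AT4G34555, which was -0.0365 on the deposited and centred scales) and -0.0112 to 0.2307 (AT4G34555 minus AT4G39200).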
